A study of Mus musculus with 6 samples.

Results

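Ribosome biogenesis begins when RNA polymerase I transcribes the ribosomal DNA into 1 long precursor, which small nucleolar RNAs and a large set of proteins then fold, modify, cut and assemble into the small and the large ribosomal subunit. The transcripts of 51 genes of this pathway are described here in mouse bone marrow. They comprise 11 genes of the polymerase I machinery, 19 factors of the small subunit, 18 factors of the large subunit and 3 nucleolar factors that serve no single subunit. They were taken by gene symbol from known roles in the pathway, with earlier results of these data known, and matched by Ensembl identifier on GRCm38. The rule itself uses no expression value. All 51 were found among the 47729 genes of the count table, and all passed the filter on low counts that left 15686 genes for testing.

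The study compared bulk RNA-seq libraries of bone marrow whole cell extract from mice that lack the SNORD113-114 cluster, called cluster KO, with libraries from wildtype mice, 3 libraries of each genotype. This cluster encodes box C/D small nucleolar RNAs, a class that mostly guides methylation of ribosomal RNA, and the series title names hematopoietic stem cells and translation as its interest. The sources used here do not give strain, age, sex, treatment, any sorting of cells or how the deletion was made. Since the labels do not say which animal gave which library, the p-values below stand only for variation among these libraries.

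In growing cells the pathway is a classic target of the transcription factor MYC, which binds the E-box CACGTG, and hematopoietic progenitors depend on it: inherited defects of ribosome assembly, such as loss of SBDS, show up as bone marrow failure. The E-box was therefore looked up in the promoters of the members, 250 bases before to 50 bases after each annotated start, in RefSeq sequences of build GRCm38.p6. A promoter was matched for 44 of the 51 genes (55 promoters). Of these 44 genes, 11 held CACGTG (25%), against 8.09% of all 27025 genes with a promoter and 11.5% of the 10821 tested ones. This motif reads the same on both strands. The following 30-base windows, in capitals the E-box, show it in 9 of the 11 genes and carry the position of the window on GRCm38.p6, its strand and the position of the E-box relative to the start. In Mybbp1a and Utp20 it lay too close to the end of the 300-base sequence for such a window.

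Nop2, chr6:125131811-125131840, plus strand, 60 bases before the start: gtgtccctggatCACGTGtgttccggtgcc
Utp4, chr8:106893643-106893672, plus strand, base 16 after the start: tgcgcaagcgcgCACGTGgggccggggcgg
Rrn3, chr16:13780472-13780501, plus strand, 215 bases before the start: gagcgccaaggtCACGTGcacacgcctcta
Rrn3, chr16:13780639-13780668, plus strand, 48 bases before the start: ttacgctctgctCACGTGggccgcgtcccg
Nol11, chr11:107189407-107189436, minus strand, 43 bases before the start: cttgagcgttcgCACGTGgtctagactcca
Utp18, chr11:93885769-93885798, minus strand, 20 bases before the start: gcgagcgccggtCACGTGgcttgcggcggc
Wdr43, chr17:71616220-71616249, plus strand, base 18 after the start: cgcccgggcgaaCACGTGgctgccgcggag
Ltv1, chr10:13193092-13193121, minus strand, base 29 after the start: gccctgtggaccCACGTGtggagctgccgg
Pes1, chr11:3963965-3963994, plus strand, base 3 after the start: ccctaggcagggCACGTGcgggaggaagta
Tsr1, chr11:74898092-74898121, plus strand, base 25 after the start: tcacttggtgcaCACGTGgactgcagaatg

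Genes with an E-box were found among those that were higher in cluster KO (2 of 8 with a promoter, Nop2 and Utp4), among those that were lower (3 of 11, Rrn3, Mybbp1a and Utp20) and among those that did not pass the test (6 of 25). By class it was held by 7 small subunit factors, 2 large subunit factors, 1 gene of the polymerase I machinery and 1 of the remaining 3. The 250 bases upstream of Rrn3 (chr16:13780449-13780698, plus strand), which was lower in cluster KO and held 2 E-boxes, and those of Nop2 (chr6:125131633-125131882, plus strand), which was higher, are shown with the E-boxes in capitals.

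Rrn3 upstream: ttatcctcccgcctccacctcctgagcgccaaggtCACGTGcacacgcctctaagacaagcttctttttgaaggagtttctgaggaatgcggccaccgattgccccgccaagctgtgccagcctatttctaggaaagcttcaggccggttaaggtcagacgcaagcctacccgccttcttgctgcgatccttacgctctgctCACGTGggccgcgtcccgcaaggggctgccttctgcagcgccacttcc
Nop2 upstream: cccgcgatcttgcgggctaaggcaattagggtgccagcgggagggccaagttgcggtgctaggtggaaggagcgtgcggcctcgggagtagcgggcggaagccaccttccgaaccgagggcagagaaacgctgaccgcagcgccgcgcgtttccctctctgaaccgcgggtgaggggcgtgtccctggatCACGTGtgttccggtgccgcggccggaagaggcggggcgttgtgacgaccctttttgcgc

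A site for ETS factors, searched as CCGGAAGT on both strands, stood in 12 of the 44 genes (27.3%), against 8.77% of tested genes, among them 5 of the polymerase I machinery (Polr1c, Polr1e, Rrn3, Taf1a and Taf1c). The GC box GGGCGG was common both in these genes (35 of 44, 79.5%) and in tested genes (65.4%), CCAAT stood in 15 (34.1%, against 42.6%) and the YY1 core AAGATGGC in 1. Such a match describes letters in a window and no binding.

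Before the results, some facts of the libraries bear on all of them. They held 17663369 to 23459168 counts on genes. Transcripts of the sex chromosomes went against a simple reading of the groups: Xist, made from the inactive X of females, stood at 228 to 249 CPM (read counts scaled to library size) in wildtype libraries and at 0.0842 to 1.92 in cluster KO ones, while the Y-linked Ddx3y stood at 18.2 to 27.9 and 77.8 to 100.3. All 3 wildtype libraries thus held RNA of both sexes, and the sex of the RNA and the genotype cannot be told apart in any result below. The counts did not check the deletion: the 23 annotated small nucleolar RNA genes between Rian and Mirg had 0 counts in each library but 1 wildtype library, which had 1. Markers of B lineage cells summed to 1971 to 2094 CPM in cluster KO and 620.2 to 662 in wildtype libraries (7 of 10 markers higher), those of neutrophils to 10268 to 19820 and 6202 to 11768 (3 of 11 higher) and those of monocytes to 113 to 121 and 62.8 to 73.7 (3 of 8 higher). Erythroid markers summed to 4439 to 5494 and 5603 to 5941 (5 of 11 lower) and megakaryocyte markers to 280.1 to 284 and 419 to 510.1 (2 of 7 lower, 1 higher). Most of the erythroid sum was Car1, at 3578 to 4411 and 4037 to 4738, which was not among the lower ones (log2 fold change -0.12, SE 0.10, adjusted p = 0.422). Stem and progenitor markers summed to 1301 to 1311 and 1154 to 1187 (4 of 10 higher, 2 lower), and no marker of the 8 lineages examined was at 0 in all 6 libraries. The part of these differences in the results below was not tested. In bulk RNA, fewer cells of a type and less RNA per cell cannot be told apart. Over the 6 libraries Slc4a1, of red cells, stood at 0.186 to 2.10 CPM and Kit, of progenitors, at 243 to 363. S100a9, of neutrophils, stood at 1830 to 5467. Whether the libraries hold whole or enriched marrow was not tested, so the levels below cannot be read as those of unfractionated marrow.

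Of the 51 genes, 8 were higher and 13 lower in cluster KO at an adjusted p under 0.05 (edgeR quasi-likelihood test, Benjamini-Hochberg adjustment over all 15686 genes), and 30 did not pass. The share that passed in either direction was 41.2%, beside 27.9% of all tested genes. Those lower made up 25.5% of the 51 genes, beside 12.1% of all tested genes, and those higher 15.7%, beside 15.9%. The values of the genotypes did not overlap for 25 of the 51, beside 46.0% of all tested genes. The median log2 fold change (cluster KO over wildtype) was 0.01 over the 51 genes and 0.00 over all genes. All 13 lower genes kept their libraries apart, and 2 of the 8 higher ones (Nob1 and Nop2) did not. Genes chosen by the test on these libraries tend to have them apart, so this adds no support to the calls. Upper-quartile scaling, in place of the main TMM scaling, shifted the median of all genes to -0.10 and turned their split from 2487 higher and 1895 lower to 2100 and 2411, with 7 of the 51 genes higher and 14 lower.

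**Figure D1:**
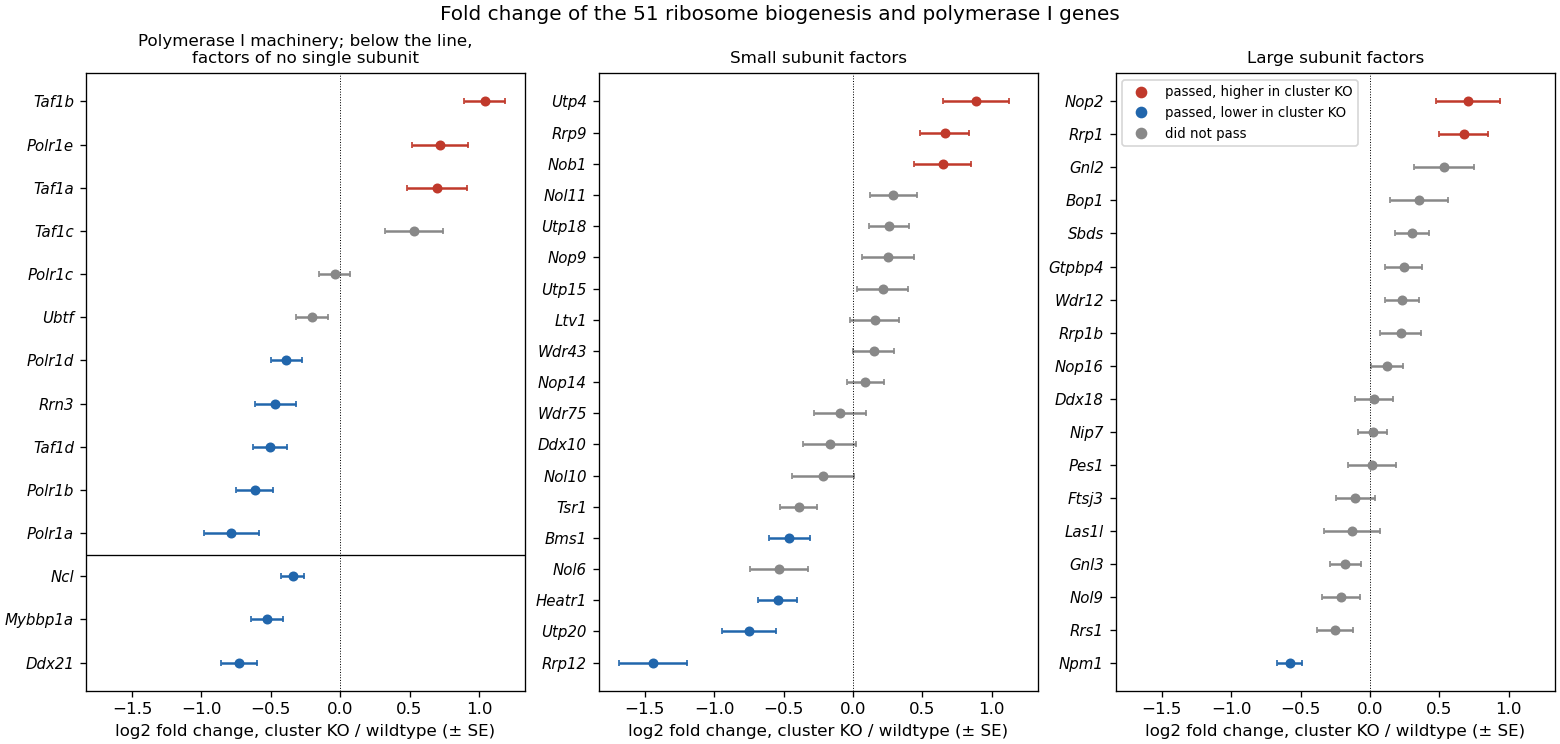
Log2 fold change (cluster KO over wildtype, x axis) of each of the 51 genes with its standard error as the bar, from 3 libraries of each genotype; red points were higher and blue points lower at an adjusted p under 0.05, grey points did not pass. Polymerase I genes spread from -0.78 for Polr1a to 1.04 for Taf1b with few grey points, whereas 15 of the 18 large subunit factors are grey. Of all tested genes 27.9% passed.

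In the polymerase I machinery 8 of 11 genes passed, and they did not move one way: 3 were higher, 5 were lower and the median was -0.21. The shares were 27.3% higher and 45.5% lower, beside 15.9% and 12.1% of all tested genes. Of the 5 subunits of the enzyme 3 were lower and 1 was higher, and of the 4 subunits of its promoter factor SL1 2 were higher and 1 was lower. Values are given in CPM for libraries 1, 2 and 3 of each genotype in this order here and below.

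Polr1a and Polr1b encode the large subunits that form the catalytic centre of the enzyme. Polr1a stood at 38.2, 32.0 and 21.5 in cluster KO and at 52.1, 50.6 and 55.4 in wildtype libraries, and fell by 0.78 on the log2 scale (SE 0.20, adjusted p = 0.0171). Polr1b, on chr2:129100995-129126594, stood at 33.3, 39.1 and 38.9 and at 56.2, 56.4 and 57.9, a fall of 34.8% (log2 fold change -0.62, SE 0.13, adjusted p = 0.00916). In both genes every cluster KO library lay below every wildtype library, and for Polr1a cluster KO library 3 was the lowest. Polr1c and Polr1d form a small assembly dimer that polymerase III also uses. Only Polr1d passed, and the genes were not tested against each other. Polr1d stood at 249.9, 211 and 209 and at 282, 289.5 and 305 (log2 fold change -0.39, SE 0.11, adjusted p = 0.0266). Polr1c stood at 109.6, 107 and 108 and at 120.3, 110.5 and 103.5, so that its libraries overlapped (log2 fold change -0.04, SE 0.11, adjusted p = 0.823). Polr1e, a polymerase I subunit of the dimer that helps initiation and elongation, was the core gene that went the other way, with 51.7, 61.0 and 69.7 against 47.3, 35.7 and 27.8 (log2 fold change 0.72, SE 0.20, adjusted p = 0.0254). Its lowest cluster KO library and its highest wildtype library lay close together.

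Initiation needs Rrn3, which couples the enzyme to the promoter, the architectural factor Ubtf, and SL1, a complex of the TATA-binding protein with Taf1a to Taf1d. Rrn3 stood at 22.5, 23.8 and 25.6 in cluster KO and at 35.2, 32.8 and 31.6 in wildtype libraries (log2 fold change -0.47, SE 0.15, adjusted p = 0.0386). Ubtf stood at 103.7, 92.5 and 91.8 and at 104.6, 112 and 115 without passing (log2 fold change -0.21, SE 0.12, adjusted p = 0.210), although its libraries did not overlap. Within SL1 the 4 genes split. Taf1b, on chr12:24498359-24558539, had the largest rise of the 51 genes, from 42.3, 37.7 and 45.5 in wildtype to 77.0, 81.9 and 99.7 in cluster KO libraries (2.06-fold, log2 fold change 1.04, SE 0.15, adjusted p = 0.00249). Taf1a stood at 19.1, 21.1 and 29.6 against 13.2, 16.9 and 12.96 (log2 fold change 0.70, SE 0.22, adjusted p = 0.0361). Taf1c stood at 10.2, 10.3 and 11.2 against 7.78, 7.02 and 7.12 and did not pass (log2 fold change 0.53, SE 0.21, adjusted p = 0.0798). In Taf1a and Taf1c, as in Taf1b, all cluster KO libraries lay above all wildtype libraries. Taf1d went the other way, with 101.8, 87.2 and 84.1 against 124, 126 and 138 (log2 fold change -0.50, SE 0.12, adjusted p = 0.0143). Taf1d also hosts 8 annotated small nucleolar RNA genes and shares 13.6% of its exon bases with other genes, most of them with those small nucleolar RNA genes on its own strand. Taf1c shares 16.7% with Dnaaf1 on the opposite strand, and without strand information the reads of that stretch cannot be assigned to either gene.

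Of these 8 calls, those of Polr1b and Taf1b held under all 13 alternatives tried. With trends of length and GC content removed, Taf1b remained higher by 0.65, and Polr1e (0.52, adjusted p = 0.0672), Rrn3 (-0.42, adjusted p = 0.0559) and Taf1a (0.52, adjusted p = 0.0914) no longer passed. The calls of Polr1a, Polr1d, Polr1e, Rrn3, Taf1a and Taf1d were each lost without cluster KO library 2 (adjusted p from 0.0582 to 0.127), without wildtype library 2 (0.0526 to 0.104) and without wildtype library 3 (0.0612 to 0.123). Polr1d (adjusted p = 0.0511) and Rrn3 (0.0851) also lost theirs without a filter on low counts, and Taf1a (0.0551) with upper-quartile scaling. Without cluster KO library 3 those of Polr1d, Polr1e and Taf1a were lost (0.0627, 0.0732 and 0.125), without wildtype library 1 those of Polr1d, Rrn3 and Taf1a (0.0566, 0.120 and 0.107), and without cluster KO library 1 that of Rrn3 (0.0515). With replicate number as a further term in the test, Polr1d, Polr1e, Rrn3, Taf1a and Taf1d lost their calls (0.0645 to 0.111).

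Small subunit factors, most of them parts of the processome that forms on the nascent precursor, split as well: 3 of 19 were higher, 4 were lower and 12 did not pass, with a median of 0.09. The shares were 15.8% higher and 21.1% lower, beside 15.9% and 12.1% of all tested genes. The complex UTP-A, which joins the precursor first and is also needed for its transcription, showed the split among its own 6 genes. Utp4 was higher, with 95.8, 138 and 214 in cluster KO and 79.8, 77.4 and 84.4 in wildtype libraries (log2 fold change 0.89, SE 0.24, adjusted p = 0.0208). Heatr1 was lower, with 35.4, 39.1 and 34.4 against 55.2, 56.0 and 47.4 (log2 fold change -0.54, SE 0.14, adjusted p = 0.0179). The wildtype libraries of Utp4 lay close together, and its cluster KO libraries differed more than 2-fold, with library 3 highest. The other 4 members of UTP-A did not pass. Nol11 stood at 62.2, 88.6 and 101.4 against 69.8, 67.9 and 68.4 (log2 fold change 0.29, SE 0.17, adjusted p = 0.232). Utp15 stood at 50.5, 57.9 and 81.9 against 60.1, 52.0 and 52.1 (0.21, SE 0.18, adjusted p = 0.414), and Wdr43, which had the highest CPM of the small subunit factors that did not pass, at 170.6, 209.6 and 254 against 185.6, 185.7 and 201 (0.15, SE 0.14, adjusted p = 0.474). Wdr75 stood at 78.5, 106 and 140.1 against 119, 116 and 112 (-0.09, SE 0.18, adjusted p = 0.734). In all 4 the wildtype libraries lay within the range of the cluster KO libraries, of which library 1 was lowest and library 3 highest. Without cluster KO library 3, Wdr43 stood at -0.00486 and Utp15 at -0.0137, and without cluster KO library 1 Wdr75 stood at 0.08.

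Rrp12, a factor of late pre-ribosome maturation and nuclear export on chr19:41862851-41896173, had the largest fall of the 51 genes. It stood at 9.96, 10.6 and 5.58 in cluster KO and at 22.9, 23.1 and 25.3 in wildtype libraries, a fall of 63.2% (log2 fold change -1.44, SE 0.25, adjusted p = 0.00384). Utp20, a very large scaffold protein of the processome, stood at 26.7, 24.5 and 18.0 against 31.5, 42.1 and 42.9 (log2 fold change -0.75, SE 0.20, adjusted p = 0.0187). Bms1, the GTPase of the processome, stood at 42.2, 44.8 and 37.2 against 49.5, 56.4 and 64.6 (log2 fold change -0.46, SE 0.15, adjusted p = 0.0449). The lower genes of this class thus kept every cluster KO library under every wildtype library, and in Rrp12, Utp20, Bms1 and Heatr1 cluster KO library 3 was the lowest.

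Rrp9, a protein of the U3 small nucleolar ribonucleoprotein that starts cleavage of the precursor, was higher, with 71.0, 92.9 and 104 in cluster KO and 63.4, 60.2 and 46.0 in wildtype libraries (log2 fold change 0.66, SE 0.18, adjusted p = 0.0210). Nob1, the endonuclease of the last cut that frees the small subunit RNA, passed with overlapping libraries, 78.2, 113 and 122 against 82.2, 66.0 and 52.5 (log2 fold change 0.65, SE 0.20, adjusted p = 0.0386). Its cluster KO library 1 lay below its wildtype library 1. The 12 genes that did not pass ranged from -0.53 (Nol6) to 0.29 (Nol11). Tsr1 shares 32.3% of its exon bases with Srr and Nop9 29.9% with Cideb, both on the opposite strand, and neither Tsr1 nor Nop9 passed.

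Only Rrp12 held its call under all 13 alternatives among the 7 genes of this class that passed. Removing trends of length and GC content ended the calls of Rrp9 (0.38, adjusted p = 0.0926), Utp4 (0.47, adjusted p = 0.113), Nob1 (0.29, adjusted p = 0.244), Heatr1 (-0.33, adjusted p = 0.125) and Bms1 (-0.37, adjusted p = 0.0697), took Utp20 to -0.50, and turned the median of the class to -0.22. All 6 of these genes lost their calls without cluster KO library 2 (adjusted p from 0.0543 to 0.133) and without wildtype library 2 (0.0607 to 0.118). Without wildtype library 3 the calls of Rrp9, Utp4, Utp20, Bms1 and Nob1 were lost (0.0685 to 0.164), without cluster KO library 3 those of Rrp9, Bms1 and Nob1 (0.0604 to 0.112), and without wildtype library 1 those of Utp4 and Heatr1 (0.0614 and 0.0599). Bms1 also lost its call without a filter on low counts (adjusted p = 0.0751). With replicate number as a further term in the test, Rrp9, Utp20, Heatr1, Bms1 and Nob1 lost their calls (0.0611 to 0.123). Utp4 stood at 0.54 without cluster KO library 3 and still passed.

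Among large subunit factors 2 of 18 were higher, 1 was lower and 15 were not called, with a median of 0.07. The shares were 11.1% higher and 5.56% lower, beside 15.9% and 12.1% of all tested genes. The gene that fell, Npm1, encodes nucleophosmin, the abundant nucleolar histone and assembly chaperone that carries recurrent mutations in acute myeloid leukemia. Npm1, on chr11:33152287-33163206, stood at 1682, 1516 and 1487 in cluster KO and at 2212, 2298 and 2479 in wildtype libraries, a fall of 33.0% (log2 fold change -0.58, SE 0.09, adjusted p = 0.00302). Per kilobase of annotated exon it was the most abundant of the 51 genes, at 874 CPM in wildtype libraries, beside 152 for Nop16, the next in order. The order behind Npm1 depends on the annotated exons. Nop16 had 281 CPM over 1845 exon bases, and Ncl had 1365 CPM over 10188. The groups of Npm1 lay well apart. The genome holds 4 near-identical Npm1 pseudogenes, so some of its reads may have been counted elsewhere or not at all. Such copies were also found for Pes1 and Ddx18 (2 each) and for Taf1d, Wdr12 and Ddx21 (1 each).

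Both higher genes of this class had their highest value in cluster KO library 3 and their lowest cluster KO value in library 1. Rrp1, a nucleolar factor of large subunit maturation, stood at 174, 245 and 301 against 153, 153 and 146 (log2 fold change 0.67, SE 0.17, adjusted p = 0.0182). Nop2, a methyltransferase of large subunit RNA, stood at 59.4, 83.7 and 123 against 59.9, 53.4 and 49.5 (log2 fold change 0.71, SE 0.23, adjusted p = 0.0432). Nop2 in cluster KO library 1 lay within the wildtype range, so its libraries overlapped, and without cluster KO library 3 it stood at 0.40 and did not pass (adjusted p = 0.130).

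PeBoW, the complex of Pes1, Bop1 and Wdr12 that processes large subunit RNA and is needed for proliferation, did not pass in any of its 3 genes. Pes1 stood at 46.1, 56.3 and 72.2 in cluster KO and at 60.6, 54.5 and 57.8 in wildtype libraries (log2 fold change 0.01, SE 0.17, adjusted p = 0.958). Bop1 stood at 51.3, 75.5 and 98.4 against 57.4, 63.6 and 55.0 (0.36, SE 0.21, adjusted p = 0.230) and Wdr12 at 269, 307 and 355 against 279, 253 and 262 (0.23, SE 0.12, adjusted p = 0.181). All 3 had their lowest cluster KO value in library 1 and their highest in library 3, with wildtype libraries in between or near the lower end. Without cluster KO library 1, Bop1 (0.56, adjusted p = 0.0165) and Wdr12 (0.31, adjusted p = 0.0411) passed. Pes1 turned to -0.10 with upper-quartile scaling and, with length and GC trends removed, Pes1 stood at -0.21, Bop1 at -0.04 and Wdr12 at 0.55 (adjusted p = 0.0413). That Wdr12 value rests on an annotated transcript of 10012 bases, of which 1269 are coding.

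Gnl3, or nucleostemin, a GTPase of stem and proliferating cells, had the highest CPM of the large subunit factors that did not pass, with 353, 353 and 436 against 434, 439 and 418 (log2 fold change -0.18, SE 0.11, adjusted p = 0.263). Its cluster KO libraries 1 and 2 lay below all wildtype libraries and library 3 lay among them. With length and GC trends removed Gnl3 stood at -0.55 (adjusted p = 0.00264). The 15 genes without a call ranged from -0.25 (Rrs1) to 0.53 (Gnl2). Sbds, the factor that frees the large subunit for translation and is mutated in Shwachman-Diamond syndrome, was among them, at 166, 179 and 186 against 158, 147 and 124 (0.30, SE 0.12, adjusted p = 0.0910); it is named for that disease, with its value known.

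Of the 3 calls of this class only that of Npm1 held under all alternatives. With length and GC trends removed Rrp1 stood at 0.21 (adjusted p = 0.280) and Nop2 at 0.32 (adjusted p = 0.237), and the median of the class turned to -0.15. Rrp1 and Nop2 both lost their calls without cluster KO library 2 (adjusted p = 0.0677 and 0.0954) and without wildtype libraries 1 (0.0510 and 0.0734), 2 (0.0659 and 0.124) or 3 (0.0724 and 0.145). Both also lost them with replicate number as a further term in the test (0.0570 and 0.115). Without cluster KO library 1, by contrast, 6 large subunit factors were called higher in place of 2, Bop1 and Wdr12 among them.

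The nucleolar factors of no single subunit, a class set with earlier results known, were all lower, 3 of 3, with a median of -0.53. Of all tested genes 12.1% were lower. Ddx21, an RNA helicase that serves both polymerase I transcription and precursor processing, on chr10:62580251-62602281, stood at 131, 110.2 and 103.9 in cluster KO and at 171, 199 and 202 in wildtype libraries, a fall of 39.7% (log2 fold change -0.73, SE 0.13, adjusted p = 0.00446). Mybbp1a, a nucleolar regulator of ribosomal DNA transcription, stood at 86.5, 81.2 and 79.9 against 111, 119.7 and 126 (log2 fold change -0.53, SE 0.12, adjusted p = 0.00928). Ncl, which encodes nucleolin, a binder of the nascent precursor, stood at 1101, 1071 and 1057 against 1358, 1395 and 1343 (log2 fold change -0.34, SE 0.08, adjusted p = 0.0134). In each of these genes the cluster KO libraries lay below the wildtype libraries. Among the cluster KO libraries, library 1 was the highest and library 3 the lowest, the reverse of the pattern in PeBoW. This order was shared by 8 of the 13 lower genes and by 62.3% of all genes called lower. Ddx21 kept its call under all 13 alternatives. Mybbp1a lost its call without cluster KO library 2 (-0.51, adjusted p = 0.0570) and with replicate number as a further term in the test (-0.53, adjusted p = 0.0549). Ncl lost its call without cluster KO library 2 (-0.34, adjusted p = 0.0787) and without wildtype library 2 (-0.33, adjusted p = 0.0798). Ncl likewise lost its call with that further term (-0.34, adjusted p = 0.0852). It also lost it with length and GC trends removed (-0.11, adjusted p = 0.362), a value that rests on an annotated Ncl transcript of 8202 bases, of which 2121 are coding.

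**Figure D2:**
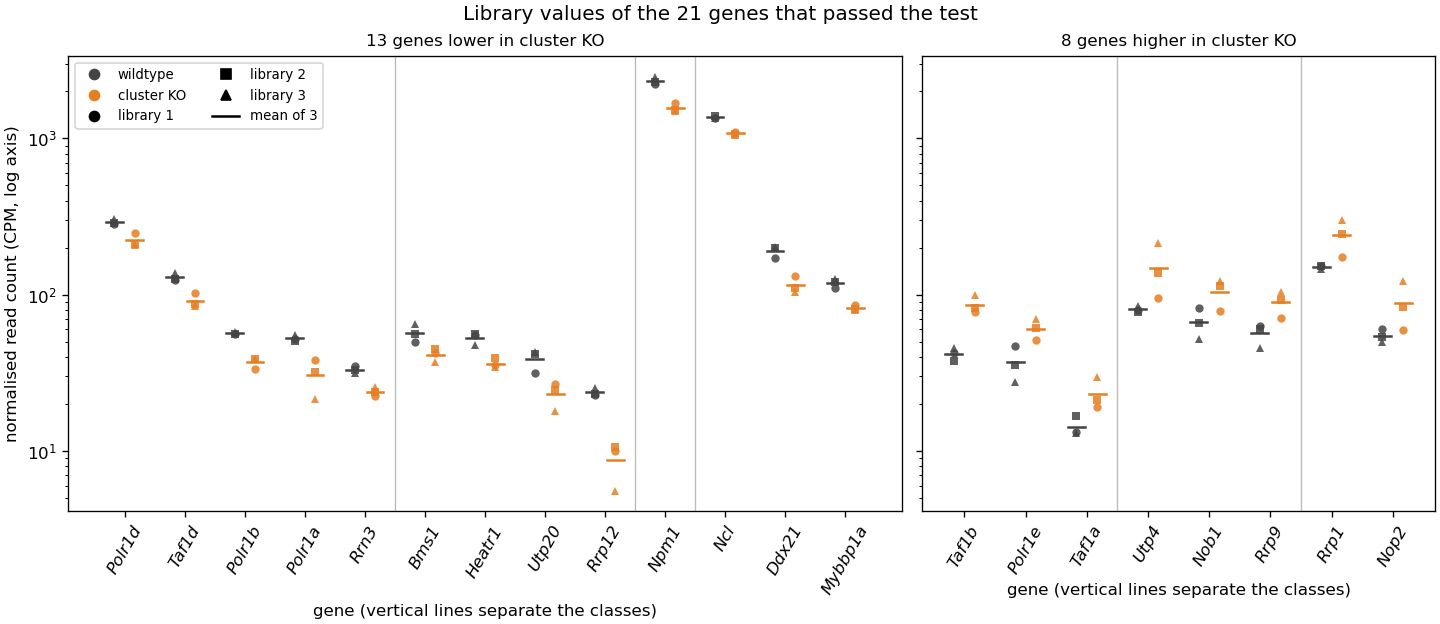
Normalised read count (CPM, log axis) of the 21 genes that passed the test, by library (circle, square and triangle for libraries 1, 2 and 3; grey wildtype, orange cluster KO; lines are means of 3). Groups are apart in all 13 lower genes, and in the 8 higher genes the orange triangle of cluster KO library 3 is the highest point.

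The cluster KO libraries differed among themselves in an ordered way over these genes. Cluster KO library 3 was highest and library 1 lowest in 30 of the 51 genes (58.8%), beside 27.6% of all tested genes, and the reverse held in 9 (17.6%, beside 26.6%). All 8 genes that were higher in cluster KO had library 3 as their highest and library 1 as their lowest, as had 21 of the 30 genes that did not pass. Among all genes called higher the share was 67.1%. By class it was 5 of 11 polymerase I genes, 12 of 19 small subunit factors, 13 of 18 large subunit factors and 0 of 3 of the remaining factors. The reverse order held in 8 of the 13 lower genes, beside 62.3% of all genes called lower.

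Averaged as log2 level relative to the wildtype mean, large subunit factors stood at -0.10, 0.08 and 0.31 in cluster KO libraries 1, 2 and 3, a spread that crossed the wildtype libraries at -0.01, 0.04 and -0.04. Small subunit factors stood at -0.25, -0.05 and 0.07 against -0.03, 0.02 and -0.02. The polymerase I machinery stood at -0.02, -0.03 and 0.02 against 0.03, -0.01 and -0.03, a level at which its higher and lower genes offset each other. The 3 factors of no single subunit stood at -0.44, -0.56 and -0.61 against -0.09, 0.03 and 0.05. Each of these 3 genes was lower with its libraries apart, so the separation of their mean follows and is no further result. Their class was set with earlier results of these data known.

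Other measures also set cluster KO libraries 1 and 3 at opposite ends, reads outside genes and ribosomal RNA with library 1 highest and Myc with library 3 highest. Reads outside genes made up 10.1%, 8.59% and 7.29% of cluster KO libraries 1, 2 and 3 and 10.03%, 10.5% and 11.1% of wildtype libraries. Annotated ribosomal RNA genes held 0.614%, 0.383% and 0.251% of gene counts against 0.998%, 1.08% and 1.44%. This share pools nuclear and mitochondrial ribosomal RNA genes in poly(A) libraries, and their separate shares were not examined. Myc transcripts stood at 186, 278 and 379 against 191, 180.2 and 178 (log2 fold change 0.62, SE 0.21, adjusted p = 0.0506). Of all tested genes 27.6% had the order of Myc, so it is not particular to Myc. Cell type markers were found in either order. Cd34 stood at 143, 171 and 240 in cluster KO libraries 1, 2 and 3, and S100a9 at 5467, 3233 and 2547. The part of these measures in the order of the ribosome biogenesis genes was not tested.

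**Figure D3:**
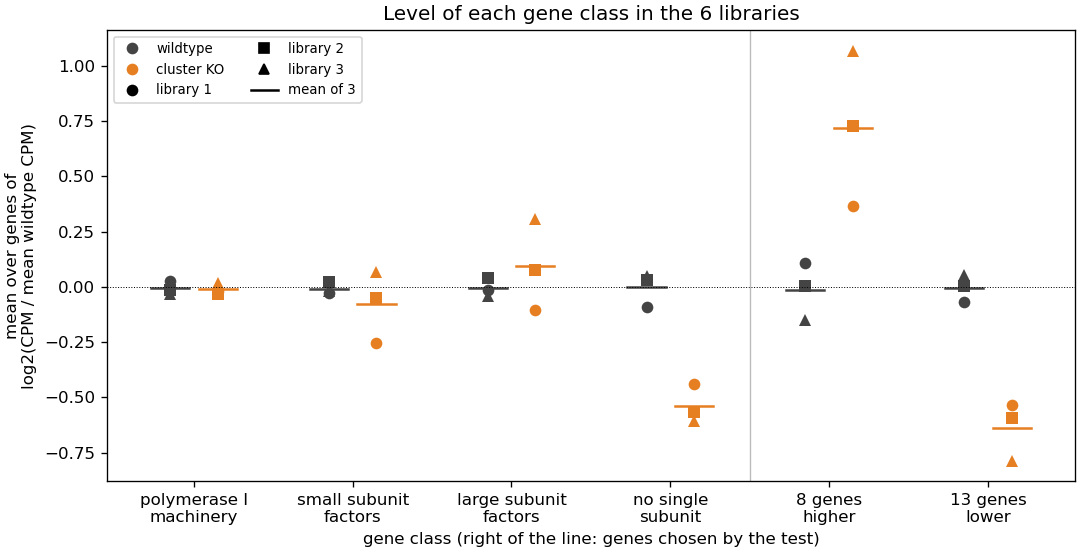
Mean over the genes of a class of the log2 ratio of CPM to the wildtype mean (y axis), for each of the 6 libraries (symbols as before; lines are means of 3). Cluster KO libraries span -0.10 to 0.31 in large subunit factors and lie below all wildtype libraries in the factors of no single subunit; the genes to the right of the line were chosen by the test and are shown for description.

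Fold changes varied with the length of the coding sequence. Across the 51 genes the log2 fold change correlated with the log2 coding length of the longest coding transcript at r = -0.36 (rho = -0.42), beside -0.14 (rho = -0.17) over 12862 tested genes with a coding transcript. These are descriptions across genes, which share their 6 libraries and are not independent. Above 3000 coding bases, a limit chosen after the values were seen, stood 8 genes, of which 7 were lower (Polr1a, Polr1b, Rrp12, Utp20, Heatr1, Bms1 and Mybbp1a) and 0 higher, with Nol6 not passing at -0.53 (adjusted p = 0.0816). Of the 43 genes at or under that length, 6 were lower and 8 higher. Among all tested genes 21.9% of those above 3000 coding bases were lower and 1.69% higher, beside 11.2% and 21.2% at or under it. With transcript length in place of coding length, r was -0.37 (rho = -0.41) for the 51 genes, beside -0.20 (rho = -0.27). Above 4000 transcript bases stood 14 genes, of which 8 were lower and 0 higher. Among all tested genes above that length 16.9% were lower and 5.66% higher. The relation to GC content was weaker, with r = 0.08. The alternative with length and GC trends removed used transcript length, not coding length. Under it 13 of the 51 genes were lower and 2 higher, Taf1b and Wdr12, and 10 of the 21 calls remained. The Wdr12 value rests on an annotated transcript of 10012 bases, of which 1269 are coding. Over all genes the split then became 1790 higher and 2016 lower.

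**Figure D4:**
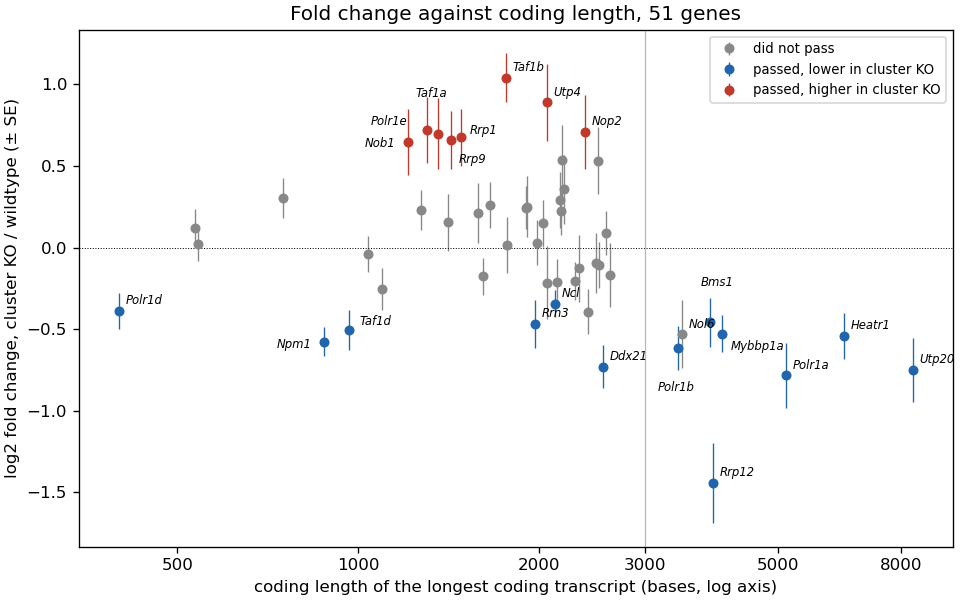
Log2 fold change (cluster KO over wildtype, bars are SE) against the coding length of the longest coding transcript in bases (log axis) for the 51 genes, colored by the test. To the right of the line at 3000 bases 7 of 8 genes are blue, and the 8 red genes lie to its left.

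Levels per kilobase of annotated exon in wildtype libraries covered a wide range. The divisor joins all annotated exons of a gene, so long annotated transcripts lower a value. Behind Npm1 and Nop16 came Ncl at 134 and Polr1d at 96.0 CPM per kilobase. At the low end stood Rrp12 at 5.48, Rrp1b at 5.30, Nol6 at 5.23, Polr1a at 4.44, Utp20 at 3.81 and Taf1c at 2.09, of which Rrp1b, Nol6 and Taf1c did not pass.

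Further genes of the pathway were listed by role. Beside their counts, 15.9% of all tested genes were higher and 12.1% lower. The calls of these further lists are from the main test only. What removal of length and GC trends or the other alternatives did to them is not given here. Of 10 other subunits and factors of polymerase I, 0 were higher and 3 lower, with a median of -0.26. The 3 were Polr2f (-0.71, SE 0.11, adjusted p = 0.00322), Polr2k (-0.78, SE 0.14, adjusted p = 0.00462) and Polr2l (-0.64, SE 0.13, adjusted p = 0.00834), small subunits that polymerases I, II and III share. Of 38 other small subunit factors tested, 9 were higher and 7 lower, with a median of 0.14. The helicase Ddx49 (1.31, SE 0.25, adjusted p = 0.00530), Dcaf13 (0.63, SE 0.13, adjusted p = 0.00889) and Noc4l (0.95, SE 0.22, adjusted p = 0.0106) led the higher ones. Pdcd11 (-1.02, SE 0.17, adjusted p = 0.00339), Fcf1 (-0.48, SE 0.10, adjusted p = 0.00908) and the RNA acetyltransferase Nat10 (-0.62, SE 0.14, adjusted p = 0.0106) led the lower ones. Of 38 other large subunit factors 7 were higher and 4 lower, with a median of 0.14.

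Among those large subunit factors Wdr18 (1.29, SE 0.20, adjusted p = 0.00291) and Pelp1 (-1.02, SE 0.20, adjusted p = 0.00661), which work in the same complex, went opposite ways. The export adaptor Nmd3 (0.62, SE 0.15, adjusted p = 0.0126) and Lsg1, the GTPase that releases it (0.75, SE 0.18, adjusted p = 0.0132), were both higher, and Nsa2 (-0.56, SE 0.13, adjusted p = 0.0126) and Cebpz (-0.50, SE 0.13, adjusted p = 0.0158) were lower. The RNA exosome, which trims the precursor, had 1 higher gene (Exosc10, 0.82, SE 0.26, adjusted p = 0.0389) and 1 lower gene (Exosc3, -0.43, SE 0.10, adjusted p = 0.0110) of 12 tested. Of 9 tested genes of the MYC family and its partners, 2 passed, both higher and both of the MXD branch that opposes MYC: Mxd3 (0.71, SE 0.17, adjusted p = 0.0127) and Mxd1 (0.79, SE 0.19, adjusted p = 0.0151). Proliferation markers were split as well, with 6 of 18 higher, among them Rrm2 (0.92, SE 0.15, adjusted p = 0.00330) and Ccnb1 (0.99, SE 0.20, adjusted p = 0.00679), and 2 lower, Mki67 (-0.54, SE 0.12, adjusted p = 0.0111) and Top2a (-0.45, SE 0.11, adjusted p = 0.0157).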

How the data were processed

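RNA-seq was made from 6 bone marrow libraries with a poly(A), non-stranded kit, per the labels' protocols. The deposited values are whole-number read counts of each Ensembl gene that the authors did not normalize; the submitters' processing notes name bcl2fastq, TopHat2, HTSeq and mm10. Versions, annotation release and counting mode: not given in the sources used here. HTSeq's summary rows entered neither library sizes nor tests, and held 7.29% to 11.1% of all reads as reads outside genes, 13.4% to 16.8% as not unique and 2.71% to 2.95% as ambiguous. Groups came from the sample titles. Counts of 2 libraries of the same genotype were further apart than sampling noise in every pair (chi-square per degree of freedom 11.0 to 70.5).

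The genotypes were compared in edgeR 4.0.16 (R 4.3.3; TMM, filterByExpr with minimum count 10, robust quasi-likelihood F-test, genotype as only term, Benjamini-Hochberg adjustment over all tested genes at 0.05), after a test on simulated data. The SE is the size of the coefficient over the square root of F. CPM are TMM-scaled. At these depths a count of 0 allows up to 3 counts, 0.128 to 0.170 CPM, for counting error only. Annotation was GENCODE M21 (GRCm38, the assembly of mm10); length and GC were those of the longest protein-coding transcript. Near-identical copies were sought with blastn 2.17.0 (at least 95% identity over 200 bases). Alternatives were DESeq2 1.42.0, upper-quartile scaling, no or a stricter filter, length and GC offsets, a replicate block (replicate number as a further term), and leaving out each library.

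The 51 genes, their classes and the further lists were chosen with earlier results of these data known. Given in full were all genes of the 51 that passed, the most abundant one of each class that did not, and the rest of SL1, UTP-A and PeBoW; of the further lists, up to 3 passing genes of smallest p in each direction. Ubtf, Sbds, Nol6, Nop16, Rrp1b, Tsr1, Nop9, Rrs1, Gnl2 and Myc fall outside this rule and were named after their values were seen. So were the cell type markers Slc4a1, Car1, Kit, Cd34 and S100a9. Promoters of 7 genes (Bop1, Gnl2, Nol6, Npm1, Rrp12, Rrs1 and Sbds) were not analysed here, nor were Riok2 and Exosc6.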

Additional observations from a re-analysis of the deposited data

How the results depend on the processing

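DESeq2 called 10 of the 51 genes higher and 14 lower (main test 8 and 13), all 21 calls of the main test among them, and the stricter filter 8 and 14. Without a filter 8 were higher and 10 lower, with 3 of the polymerase I genes lower in place of 5. Upper-quartile scaling took the median of polymerase I genes from -0.21 to -0.31 and that of the factors of no single subunit from -0.53 to -0.63, and kept 20 of the 21 calls.

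With length and GC trends removed 2 genes were higher and 13 lower: 1 polymerase I gene higher, 0 small subunit factors higher, and 1 large subunit factor higher and 4 lower, with class medians of -0.22 for the small subunit and -0.15 for the large. Pes1 turned to -0.21 and Bop1 to -0.0394. Upper-quartile scaling turned Pes1 to -0.10.

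The labels do not say whether replicate numbers pair the samples. Over 15686 genes the deviations of same-numbered libraries correlated at -0.122, 0.0154 and -0.0891. Those of unlike number correlated at -0.0348 to 0.1265. With 3 libraries of each genotype these values cannot decide whether same-numbered libraries share a batch. With the replicate block 2 of the 51 genes were higher and 5 lower, and all genes gave 1331 and 865. By class the block left 1 higher and 2 lower polymerase I genes, 1 higher and 1 lower small subunit factor, 0 higher large subunit factors and 1 lower factor of no single subunit, and Pes1 stood at -0.00772. The replicate block with length and GC trends removed gave 1 higher gene of the 51, and 852 higher and 1025 lower of all genes. It left 1 higher polymerase I gene, 0 higher and 1 lower small subunit factors, 0 higher and 3 lower large subunit factors, medians of -0.21 and -0.15 for the small and the large subunit, Pes1 at -0.22 and Bop1 at -0.0675.

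Leaving out each library in turn gave 1 (without cluster KO library 2, wildtype library 2 or wildtype library 3) to 13 (without cluster KO library 1) genes higher and 4 (without cluster KO library 2) to 12 lower. Over all genes it gave 1258 to 3151 higher and 742 to 2579 lower. Polymerase I genes ran from 1 to 3 higher and from 1 to 4 lower with medians of -0.27 to -0.17, small subunit factors from 0 to 4 higher and from 1 to 4 lower, large subunit factors from 0 to 6 higher, and the factors of no single subunit from 1 to 3 lower. Ranges of log2 fold change that crossed 0 were -0.0912 to 0.0199 for Polr1c, -0.00486 to 0.27 for Wdr43, -0.32 to 0.0817 for Wdr75, -0.0137 to 0.34 for Utp15 and -0.17 to 0.15 for Pes1. The cause of these changes was not tested. Polr1b, Taf1b, Rrp12, Npm1 and Ddx21 passed under all 13 alternatives.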
